A study of Mus musculus with 9 samples.

Results

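The libraries titled H3R17H were compared with those titled WT over 10873 genes, out of the 16070 rows of the expression table. A gene entered when it reached 1 FPKM (fragments scaled by transcript length and library total) in at least 3 of these 6 libraries, 3 per group. The remaining 3 of the 9 libraries of the series, titled Carm1-/-, were kept out of the fit and are shown beside the results. All were made from embryos of the strain C57BL/6 that had been cultured in vitro and were taken 4.5 days after microinjection. WT embryos are wild type, and the other genotype is given as H3R17H, in which histone H3 has histidine in place of arginine at position 17 of its tail. The sources used here do not say what was injected into the WT embryos, how many of the copies of H3 carried the substitution or what share of cells was edited. The tissue is named as a day 4.5 embryo, while the cDNA is described as coming from a single cell. No label says that the libraries were separate embryos, so the p-values reflect library-to-library spread, which may be technical.

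Histone H3 is the nucleosome core protein whose tail carries many regulatory marks, and its arginine 17 is methylated by CARM1 (PRMT4), a coactivator arginine methyltransferase. A late blastocyst holds an outer trophectoderm, the epithelium that pumps the cavity full of fluid and forms the placenta, and an inner cell mass that sorts into epiblast, the source of the fetus, and primitive endoderm, the source of the yolk sac lining. Hippo signalling holds the coactivator Yap in the cytoplasm of inner cells. In outer cells Yap enters the nucleus and, with Tead4, turns on trophectoderm genes. The title of the series names this pathway as the question behind the comparison.

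Carm1 itself was low in the libraries labelled H3R17H. Carm1 (chromosome 9, 21546894 to 21592623, plus strand, GENCODE M21 on GRCm38, as for all positions below) was at 8.86, 7.08 and 6.65 FPKM in WT and 1.88, 0.02 and 1.22 FPKM labelled H3R17H, and the groups did not overlap (log2 difference -2.18, SE 0.40, adjusted p = 0.0353). With a term for the presence of Y transcripts, which sets replicate 1 alone against WT, its log2 difference was -1.56. Its adjusted p was 0.0269 with array quality weights and 0.148 with all 9 libraries in the fit. Carm1 was called in 1 of the 6 fits that left out a library. In the libraries labelled Carm1-/- it was at 6.44, 12.7 and 9.52 FPKM, close to or above the WT values. The names in the table and the sample descriptions go the same way, since the columns titled H3R17H are named Carm and those titled Carm1-/- are named Hist. Every direction below therefore refers to the label, and which genotype the libraries had cannot be told apart from these files. No protein was measured, and FPKM per gene does not show the edited codon.

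Other features also separated the 6 libraries. Summed FPKM of the Y-linked genes lay between 30.7 and 36.6 in the WT libraries and in replicate 1 labelled H3R17H, but at 0.01 and 0 in replicates 2 and 3. Xist, the noncoding RNA of X inactivation in female cells, was at 0.43, 0.34 and 0.19 FPKM in WT and 4.84, 28.2 and 16.6 FPKM labelled H3R17H (log2 difference 3.46, SE 0.53, adjusted p = 0.0313). All WT libraries thus held Y transcripts and only 1 of the other 3 did, so sex and group cannot be fully told apart. A fit with a term for Y transcripts therefore takes the group difference from replicate 1 labelled H3R17H alone. In replicate 2 labelled H3R17H, genes of chromosomes 1 and 4 stood at medians of -0.43 and -0.37 (log2) relative to WT, against -0.2 for the next lowest of its autosomes and -0.12 for the lowest autosome of any other library. Short transcripts were higher and long ones lower in the libraries labelled H3R17H. The median log2 difference was 0.31 for genes whose longest annotated transcript has up to 500 bases, and -0.16 for those over 8000 bases. Between 10566 and 10786 genes reached 1 FPKM per library, and sequencing depth is unknown. Few markers of other cells were listed. Of 14 cumulus and granulosa markers, 2 were listed, of 14 fibroblast markers 3, of 14 blood markers 5, with Csf1r at 0 throughout and Cd68 at up to 61.9 FPKM, and of 8 liver and visceral markers 1. That 1 was Apoa1, an apolipoprotein, at 148, 45.01 and 54.97 FPKM in WT and 44.02, 143.5 and 185 FPKM labelled H3R17H, and the groups overlapped. The part of these features in the results below was not tested, beyond the counts given next.

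**Figure D1:**
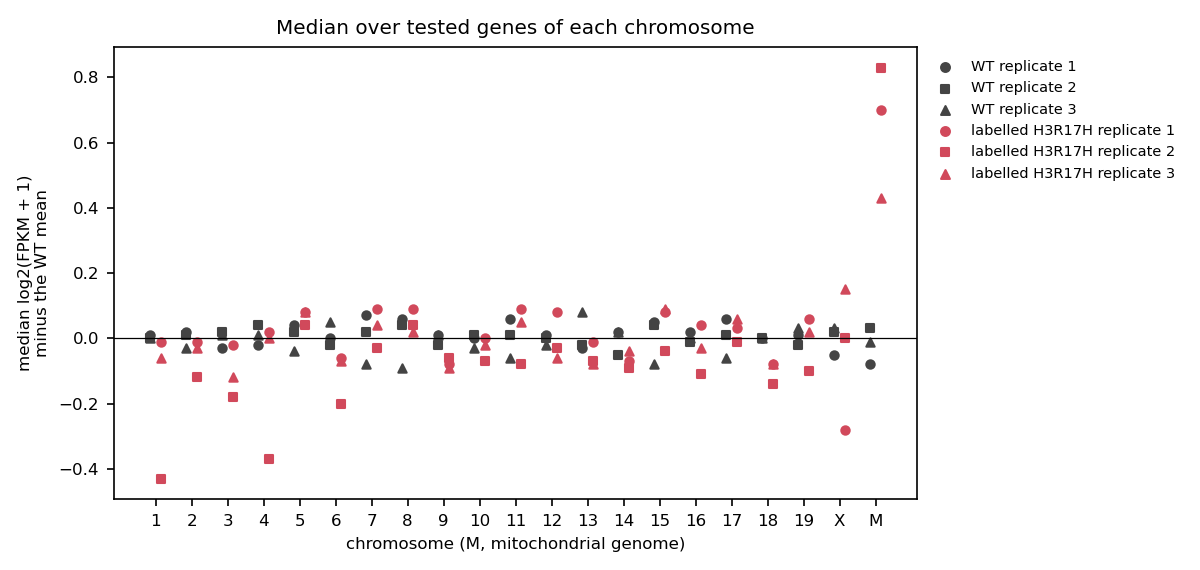
Each point is the median, over the tested genes of a chromosome, of log2(FPKM + 1) minus the mean of the WT libraries, with chromosomes on the horizontal axis, black for WT and red for libraries labelled H3R17H. Chromosomes 1 and 4 of replicate 2 stand at -0.43 and -0.37, the X of replicate 1 at -0.28, and mitochondrial genes of all 3 libraries labelled H3R17H at 0.43 or above.

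**Figure D2:**
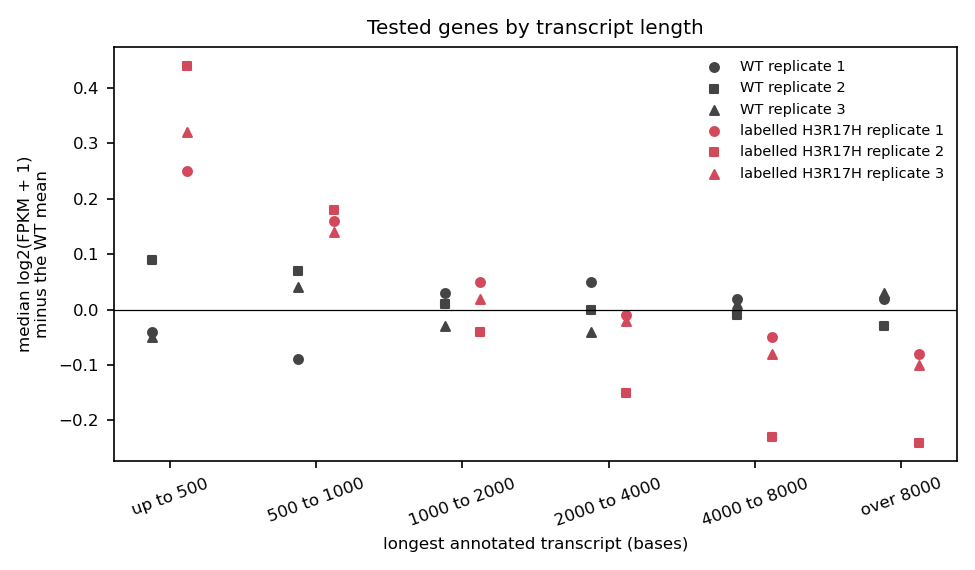
Each point is the median, over the tested genes of a length class, of log2(FPKM + 1) minus the WT mean, with the longest annotated transcript in bases on the horizontal axis. The 3 libraries labelled H3R17H lie between 0.25 and 0.44 in the shortest class and between -0.24 and -0.08 in the longest.

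Of the 10873 tested genes, 271 (2.49%) passed limma's moderated test at an adjusted p under 0.05, and are called changed below. The split was 128 higher (1.18%) and 143 lower (1.32%) in the libraries labelled H3R17H. Values were higher, called or not, for 47% of all tested genes, and the median log2 difference over all of them was -0.04. Both groups were apart in every called gene, which was also so for 29.6% of all tested genes. The difference was at least 2 on the log2 scale for 85 of the called genes. Of the called genes, 17 higher ones were under 1 FPKM in every WT library and 19 lower ones were under 1 FPKM in every library labelled H3R17H; these entered only through the group where they are high. At the limit itself, the third highest of the 6 values was 1.001 FPKM for Basp1, just inside, and 0.9995 FPKM for Haghl, just outside.

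The number of calls rested on single libraries. It was 86, 10 and 2 without WT replicate 1, 2 or 3, and 42, 27 and 595 without replicate 1, 2 or 3 labelled H3R17H. Lurap1l and Trim43b were called in all 6 of these fits, and Alppl2, Polr2l, Rpl41, Id2 and Rhox5 in 5 of them. Every other gene called below lost its call in at least 2 of the 6, and many lost it in more. Tpi1, Tspan3, Pepd and B3gnt7 were called in 4 of these fits, and Insig1, Lss, Ccnb2 and Tdgf1 in 2. Gm2a, Fabp3, Pdgfra, Mki67, Cenpf and Upp1 were called in 1, and Tbx3 in 0. When the spread was estimated over all 9 libraries, limma called 0 genes, with 1633 at an unadjusted p under 0.05 against 2508 here. With a term for the presence of Y transcripts the group difference was that of replicate 1 labelled H3R17H against WT. The calls of that fit rest on 1 library and are not counted here. Without chromosomes 1 and 4, 239 were called, and with the trend over transcript length removed 262, of which 225 are among the 271.

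**Figure D3:**
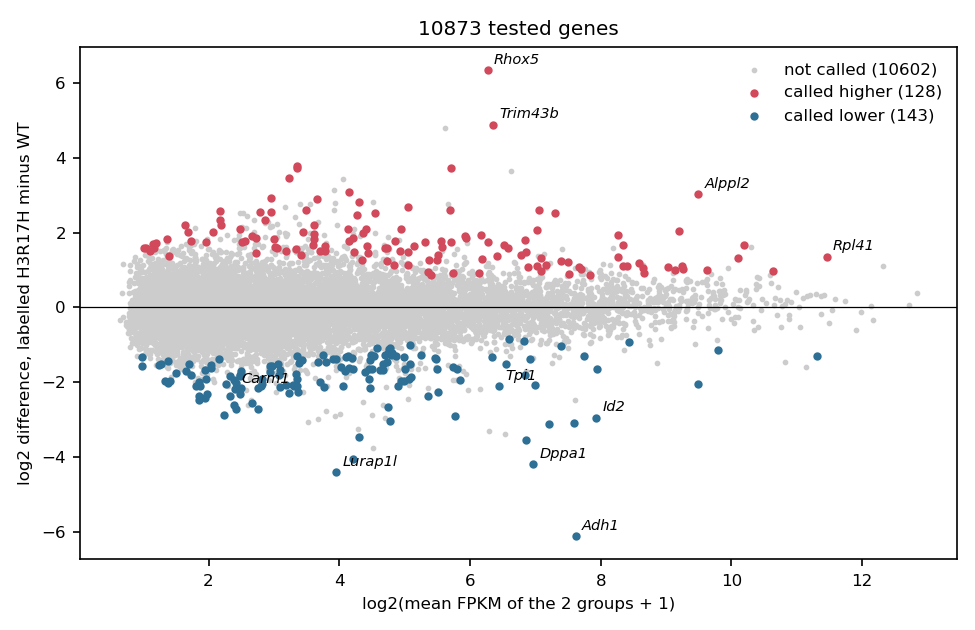
Each point is a tested gene, with the log2 of its mean FPKM + 1 on the horizontal axis and the log2 difference, libraries labelled H3R17H minus WT, on the vertical axis. The 128 genes called higher are red, the 143 called lower blue and the others grey; Rhox5 stands highest at 6.34 and Adh1 lowest at -6.11.

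Lurap1l (chromosome 4, 80910646 to 80955628, plus strand), which codes for a relative of the leucine-rich adaptor LURAP1, had the smallest p. Lurap1l was at 21.2, 28.9 and 35.6 FPKM in WT and 0.39, 0.47 and 0.25 FPKM labelled H3R17H (log2 difference -4.41, SE 0.29, adjusted p = 0.0012). Being under 1 FPKM in every library labelled H3R17H, Lurap1l entered only through WT and could only be lower. Trim43b (chromosome 9, 89084624 to 89092835, minus strand), one of a cluster of Trim43 genes of the early embryo, was at 10.1, 5.01 and 1.13 FPKM in WT and 129, 192.5 and 145 FPKM labelled H3R17H (log2 difference 4.89, SE 0.52, adjusted p = 0.0108). It had a near neighbour in sequence, Trim43a, whose log2 difference of 0.51 did not pass; reads shared between such copies could be split in either way. Alppl2 (chromosome 1, 87086694 to 87089928, minus strand), an alkaline phosphatase anchored on the surface of embryonic cells, was at 246, 136 and 106 FPKM in WT and 1347, 1543 and 939 FPKM labelled H3R17H (log2 difference 3.03, SE 0.31, adjusted p = 0.0108). In each of these 3 genes the gap between the groups was wider than the spread within either. All 3 were picked for their small p, so that gap is a description only.

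**Figure D4:**
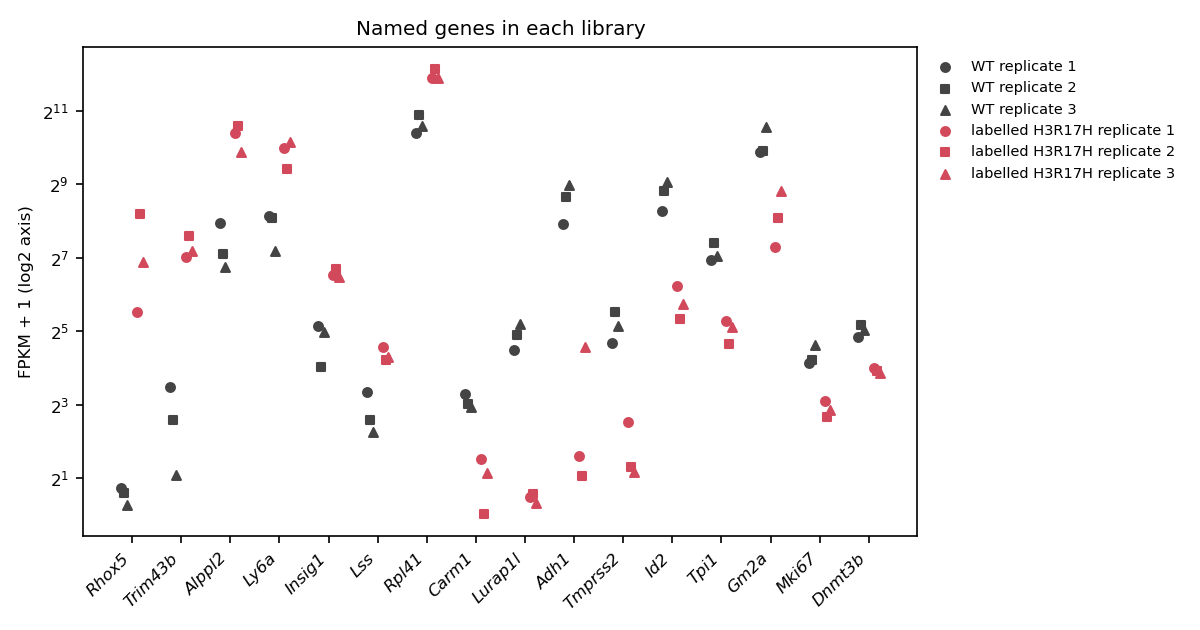
FPKM + 1 on a log2 axis for 16 genes in each library, black for WT and red for libraries labelled H3R17H, with a symbol for each replicate. The 7 genes from Rhox5 to Rpl41 are higher and the 9 from Carm1 to Dnmt3b lower in all 3 libraries labelled H3R17H than in any WT library.

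Most trophectoderm genes were lower in value under the H3R17H label. Of the 16 tested transcription factors of this lineage, 11 had lower values, with a median log2 difference of -0.87 beside -0.04 for all genes. Of these 16, 4 were called (25%, against 2.49% of all genes), 3 lower and 1 higher. The lists here and below were chosen with earlier results of these data known, so such shares are a description only. Ets2 and Gata2 were under 1 FPKM in every library labelled H3R17H. Both entered only through WT and could only be lower, and both count among the 11. Ets2 is also among the 3 called lower. Id2 (chromosome 12, 25093799 to 25097140, minus strand), an inhibitor of basic helix-loop-helix factors that is enriched in outer cells, was at 308, 452.5 and 535.5 FPKM in WT and 74.5, 39.3 and 52.9 FPKM labelled H3R17H (log2 difference -2.95, SE 0.28, adjusted p = 0.00918). Every WT value of Id2 lay far above every value labelled H3R17H. Grhl1, a grainyhead factor of epithelia, was at 3.67, 4.18 and 7.99 FPKM in WT and 0.88, 1.2 and 0.79 FPKM labelled H3R17H (log2 difference -1.62, SE 0.33, adjusted p = 0.0426). Ets2, needed in the trophoblast, was at 1.81, 3.46 and 3.13 FPKM in WT and 0.37, 0.51 and 0.27 FPKM labelled H3R17H (log2 difference -1.44, SE 0.30, adjusted p = 0.0451), low in both groups. Tbx3, a T-box factor active in trophectoderm and in pluripotent cells, moved the other way, at 9.71, 15.2 and 5.04 FPKM in WT and 29.1, 35.8 and 28.3 FPKM labelled H3R17H (log2 difference 1.65, SE 0.35, adjusted p = 0.0487).

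The factors best known for specifying the trophectoderm did not pass. Cdx2 was at 10.2, 7.13 and 5 FPKM in WT and 5.7, 2.34 and 6.52 FPKM labelled H3R17H, and the groups overlapped (adjusted p = 0.419). Gata3 was at 277, 318 and 369 FPKM in WT and 147, 183 and 219 FPKM labelled H3R17H, with no overlap, and missed the threshold (log2 difference -0.82, SE 0.20, adjusted p = 0.0616). Eomes differed by -0.95 and Gata2 by -1.55, also without a call. Tead4 and Tfap2c had higher mean values in the libraries labelled H3R17H, with log2 differences of 0.11 and 0.61, and did not pass either. By library, the median over the 16 factors was -0.93, -1.3 and -0.23 in replicates 1 to 3 labelled H3R17H, so replicate 3 lay closest to WT. In these bulk libraries, fewer cells of a lineage and less RNA per cell cannot be told apart.

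Genes of the trophectoderm as an epithelium also mostly had lower values. Of 35 tested, 29 had lower values (median log2 difference -0.53) and 4 were called, all lower (11.4%, against 1.32% of all genes). Gm2a, the lysosomal activator of ganglioside breakdown, was at 948, 966.5 and 1512.5 FPKM in WT and 156, 269 and 452.5 FPKM labelled H3R17H (log2 difference -2.06, SE 0.36, adjusted p = 0.0323). Fabp3, a fatty acid binding protein, was among the most abundant transcripts at 2723, 4110.5 and 3923 FPKM in WT and 1104.5, 1292.5 and 2098 FPKM labelled H3R17H (log2 difference -1.29, SE 0.25, adjusted p = 0.0383). Dsc2, a cadherin of desmosomes, was at 3.46, 13.5 and 15.8 FPKM in WT and 0, 1.03 and 0.9 FPKM labelled H3R17H (log2 difference -2.71, SE 0.53, adjusted p = 0.0379). Each of these 3 had its highest value labelled H3R17H under its lowest WT value, with the smallest relative gap in Fabp3. The keratins that fill trophectoderm cells missed the threshold. Krt8 was at 2229, 2551 and 2756 FPKM in WT and 736, 518 and 1994 FPKM labelled H3R17H (log2 difference -1.45, SE 0.41, adjusted p = 0.0861), and Krt18 at 2663, 2611.5 and 4636.5 FPKM in WT and 620.2, 837.5 and 2243 FPKM labelled H3R17H (log2 difference -1.60, SE 0.43, adjusted p = 0.0806). For both keratins replicate 3 labelled H3R17H stood far above the other 2 replicates of its group.

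Other genes called lower that the naming rule picked have various roles. Tmprss2, a serine protease of the cell surface, was at 24.8, 45.2 and 34.6 FPKM in WT and 4.75, 1.47 and 1.23 FPKM labelled H3R17H (log2 difference -3.46, SE 0.40, adjusted p = 0.0125). It was the only called gene among 15 tested serine proteases and inhibitors (6.67%, against 2.49% of all genes), of which 13 had lower values (median -0.66). Slc15a2, a transporter of small peptides, was at 8.65, 45.5 and 49.3 FPKM in WT and 0.76, 0.43 and 0.96 FPKM labelled H3R17H (log2 difference -4.05, SE 0.58, adjusted p = 0.023). Tspan8 and Tspan3, tetraspanins of the plasma membrane, differed by -2.90 and -2.36. Lgals1, a galactose-binding lectin, and Lcp1, an actin-bundling plastin, differed by -3.08 and -3.04. B3gnt7, an enzyme that extends sugar chains, was at 5.08, 8.07 and 8.65 FPKM in WT and 0, 0 and 0.31 FPKM labelled H3R17H (log2 difference -2.89, SE 0.31, adjusted p = 0.0108). In all 7 of these genes the groups were apart, as in every called gene. Slc15a2 and B3gnt7 were under 1 FPKM in every library labelled H3R17H. Both entered only through WT and could only be lower. Genes of the actin cortex picked after their values were seen also fell: Msn by 2.67, Lima1 by 2.10, Zyx by 1.90, Myh10 by 1.37 and Tpm1 by 1.28 on the log2 scale. That choice makes them examples only.

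Markers of the epiblast and of pluripotency moved in both directions. Of 25 tested, 11 had higher values, the median was -0.26, and 2 were called higher and 2 lower (16% in all, against 2.49%). Zfp42 (Rex1), a zinc finger protein of naive pluripotency, was at 45.5, 47.2 and 50.2 FPKM in WT and 107, 81.8 and 86.4 FPKM labelled H3R17H (log2 difference 0.92, SE 0.19, adjusted p = 0.0395); Tbx3, given above, was the other. Tdgf1 (Cripto), a coreceptor for Nodal on epiblast cells, was at 39.9, 56.1 and 44.3 FPKM in WT and 5.94, 18.4 and 9 FPKM labelled H3R17H (log2 difference -2.10, SE 0.36, adjusted p = 0.0323). Upp1, a uridine phosphorylase abundant in pluripotent cells, was at 73.9, 107 and 86.6 FPKM in WT and 19.8, 13.7 and 39.4 FPKM labelled H3R17H (log2 difference -1.95, SE 0.35, adjusted p = 0.0338). The core factors did not pass, with log2 differences of 0.17 for Nanog, 0.56 for Pou5f1 (Oct4) and -0.98 for Sox2. Sox2 was scarce in every library, at 3.14, 2.23 and 1.18 FPKM in WT and 0.13, 0.42 and 1.38 FPKM labelled H3R17H. Dppa1, a small placental and pluripotency protein, was not on this list and fell, at 120.1, 233 and 337 FPKM in WT and 2.25, 9.83 and 42.9 FPKM labelled H3R17H (log2 difference -4.20, SE 0.80, adjusted p = 0.0363). Its 3 values labelled H3R17H spread widely.

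Primitive endoderm genes mostly had lower values. Of 17 tested, 14 had lower values (median -0.46) and 1 was called (5.88%, against 2.49%). Pdgfra, the growth factor receptor that marks this lineage, was at 6.05, 9.44 and 9.07 FPKM in WT and 0.01, 1.06 and 1.82 FPKM labelled H3R17H (log2 difference -2.33, SE 0.41, adjusted p = 0.0336). Over all alternatives its adjusted p ranged from 0.0185 to 0.156. With the term for Y transcripts, which sets replicate 1 alone against WT, its log2 difference was -3.17. Gata6, its earliest transcription factor, had higher values and did not pass, at 28.6, 29.1 and 21.7 FPKM in WT and 47.2, 52.4 and 36.1 FPKM labelled H3R17H (log2 difference 0.75, SE 0.23, adjusted p = 0.0983). Sox17, a later factor, did not reach the filter, at 0.58, 13.3 and 4.45 FPKM in WT and 0.77, 0.04 and 0 FPKM labelled H3R17H; its values were scattered already within WT. Basement membrane genes of this lineage did not pass, with differences of -2.12 for Sparc, -1.57 for Lamc1 and -1.17 for Lamb1. Dusp4, a phosphatase that acts on Erk, was the 1 called gene of 8 tested in Fgf and Erk feedback (12.5%, against 2.49%). Its values were 3.43, 9.41 and 9.7 FPKM in WT and 37.03, 39.3 and 19.03 FPKM labelled H3R17H (log2 difference 1.99, SE 0.41, adjusted p = 0.0449).

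Hippo and Yap genes gave no call by limma. Among 19 tested genes of the Hippo pathway, which include its kinases and scaffolds, the effectors Yap1 and Wwtr1, the Tead factors and Vgll4, 14 had lower values with a median of -0.16, and 2 had an unadjusted p under 0.05. Among 10 tested Yap targets 7 had lower values, with a median of -0.24, and 1 had such a p. Yap1 was at 9.8, 8.96 and 8.73 FPKM in WT and 7.18, 3.1 and 8.24 FPKM labelled H3R17H (log2 difference -0.58, SE 0.34, adjusted p = 0.34), and Wwtr1, which codes for the related coactivator TAZ, at 19.7, 23.3 and 13.9 FPKM in WT and 14.9, 18.7 and 17.5 FPKM labelled H3R17H (log2 difference -0.12, SE 0.25, adjusted p = 0.809). The interval of 2 standard errors around the Yap1 difference covers both no change and a fall by 1. The classical targets had higher means: Ctgf was at 6.11, 4.64 and 4.1 FPKM in WT and 32.5, 19 and 4.07 FPKM labelled H3R17H (log2 difference 1.35, SE 0.60, adjusted p = 0.219) and Cyr61 at 10.3, 44.3 and 11.4 FPKM in WT and 28.6, 55.4 and 19.6 FPKM labelled H3R17H (log2 difference 0.81, SE 0.55, adjusted p = 0.417). In Ctgf replicate 3 labelled H3R17H stood level with the lowest WT value (4.07 against 4.1 FPKM) while the other 2 stood above every WT value. Gadd45b, also on the list, was at 0.91, 5.39 and 0.05 FPKM in WT and 8.72, 16.9 and 7.32 FPKM labelled H3R17H and did not pass. No change in the RNA of the pathway was called, and small changes could be missed at this spread. In data simulated with the spread of these libraries, 24% of changes of 1 on the log2 scale were recovered, and 80% of changes of 2. Those changes were placed only in the better expressed genes.

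Most genes of sterol synthesis had higher values, and the list had the highest median of the lists with at least 8 tested members. All 21 genes of the list, enzymes on the way from acetyl-CoA to cholesterol and the regulator Insig1, were tested, 17 had higher values, the median log2 difference was 0.91, and 4 were called higher (19%, against 1.18% of all genes). Insig1 (chromosome 5, 28071363 to 28078662, plus strand), the membrane protein that holds back the sterol-sensing factor SREBP when sterols abound and is itself an SREBP target, was at 34.4, 15.4 and 30.6 FPKM in WT and 92.3, 102 and 87.5 FPKM labelled H3R17H (log2 difference 1.85, SE 0.29, adjusted p = 0.0314). Fdps, the synthase of farnesyl pyrophosphate, was at 214, 217 and 203 FPKM in WT and 548, 387 and 459.5 FPKM labelled H3R17H (log2 difference 1.12, SE 0.17, adjusted p = 0.0309). Lss (chromosome 10, 76531588 to 76557138, plus strand), which closes the sterol rings, was at 9.16, 4.97 and 3.81 FPKM in WT and 22.7, 17.4 and 18.8 FPKM labelled H3R17H (log2 difference 1.63, SE 0.32, adjusted p = 0.0379), and Sqle, the squalene epoxidase just upstream, at 27.04, 11.9 and 12.5 FPKM in WT and 54.7, 43.4 and 57.3 FPKM labelled H3R17H (log2 difference 1.63, SE 0.32, adjusted p = 0.0379). Their replicates labelled H3R17H lay close together. Hmgcs1, the HMG-CoA synthase of an early step, was apart between groups but did not pass, at 21.6, 23.1 and 21.6 FPKM in WT and 65.03, 36 and 43.1 FPKM labelled H3R17H (log2 difference 1.04, SE 0.25, adjusted p = 0.0611). Fasn, the fatty acid synthase, was called at 2.82, 1.04 and 1.3 FPKM in WT and 9.82, 6.81 and 7.58 FPKM labelled H3R17H (log2 difference 1.78, SE 0.33, adjusted p = 0.0353). Over the 21 tested genes of fatty acid synthesis and storage the median was 0.43, with 1 called in each direction. Medians of the sterol list by library were 1.26, 0.44 and 0.93 labelled H3R17H, and 0.2, -0.14 and -0.03 in WT.

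The promoters of these genes can be read beside their values. RefSeq (GRCm38.p6) gave 250 bases upstream of its own start site for 16 of the 21 sterol genes, in 19 windows. The pentamer CCAAT, bound by NF-Y, was searched on both strands. It occurred in 15 of the 19 windows, against 33.8% of 32851 promoters, and in at least 1 window of 15 of the 16 genes. The sterol element core TCACNCCAC was found in 1 window, that of Hmgcs1 (1.05% of promoters), and the E-box CACGTG, which reads alike on both strands, in 4 windows (6.02%). A match is a description, not a site, and other forms of these elements were not searched. Windows are shown for both called genes with an entry and for Hmgcs1, which held the core as well. Capitals mark CCAAT on either strand. The stretches shown stop before the GENCODE start of the gene and are chr5:28071162-28071362, chr10:76531355-76531587 and chr13:119690101-119690350, all on the plus strand.
Insig1: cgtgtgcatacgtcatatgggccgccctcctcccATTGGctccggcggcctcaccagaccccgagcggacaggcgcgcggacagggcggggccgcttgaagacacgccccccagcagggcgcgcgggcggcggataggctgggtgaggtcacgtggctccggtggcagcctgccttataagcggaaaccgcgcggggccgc
Lss: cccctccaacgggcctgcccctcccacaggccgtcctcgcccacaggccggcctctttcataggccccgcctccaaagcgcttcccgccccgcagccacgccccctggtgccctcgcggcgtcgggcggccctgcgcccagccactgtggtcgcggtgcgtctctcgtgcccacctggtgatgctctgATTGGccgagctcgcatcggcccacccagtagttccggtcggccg
Hmgcs1: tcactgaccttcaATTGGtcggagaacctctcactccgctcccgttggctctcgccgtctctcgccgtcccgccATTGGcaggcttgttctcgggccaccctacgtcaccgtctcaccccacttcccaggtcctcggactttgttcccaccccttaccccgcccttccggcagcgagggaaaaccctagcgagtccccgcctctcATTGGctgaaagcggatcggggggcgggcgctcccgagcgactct
Insig1 and Lss carried 1 such box each and Hmgcs1 carried 3.

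**Figure D5:**
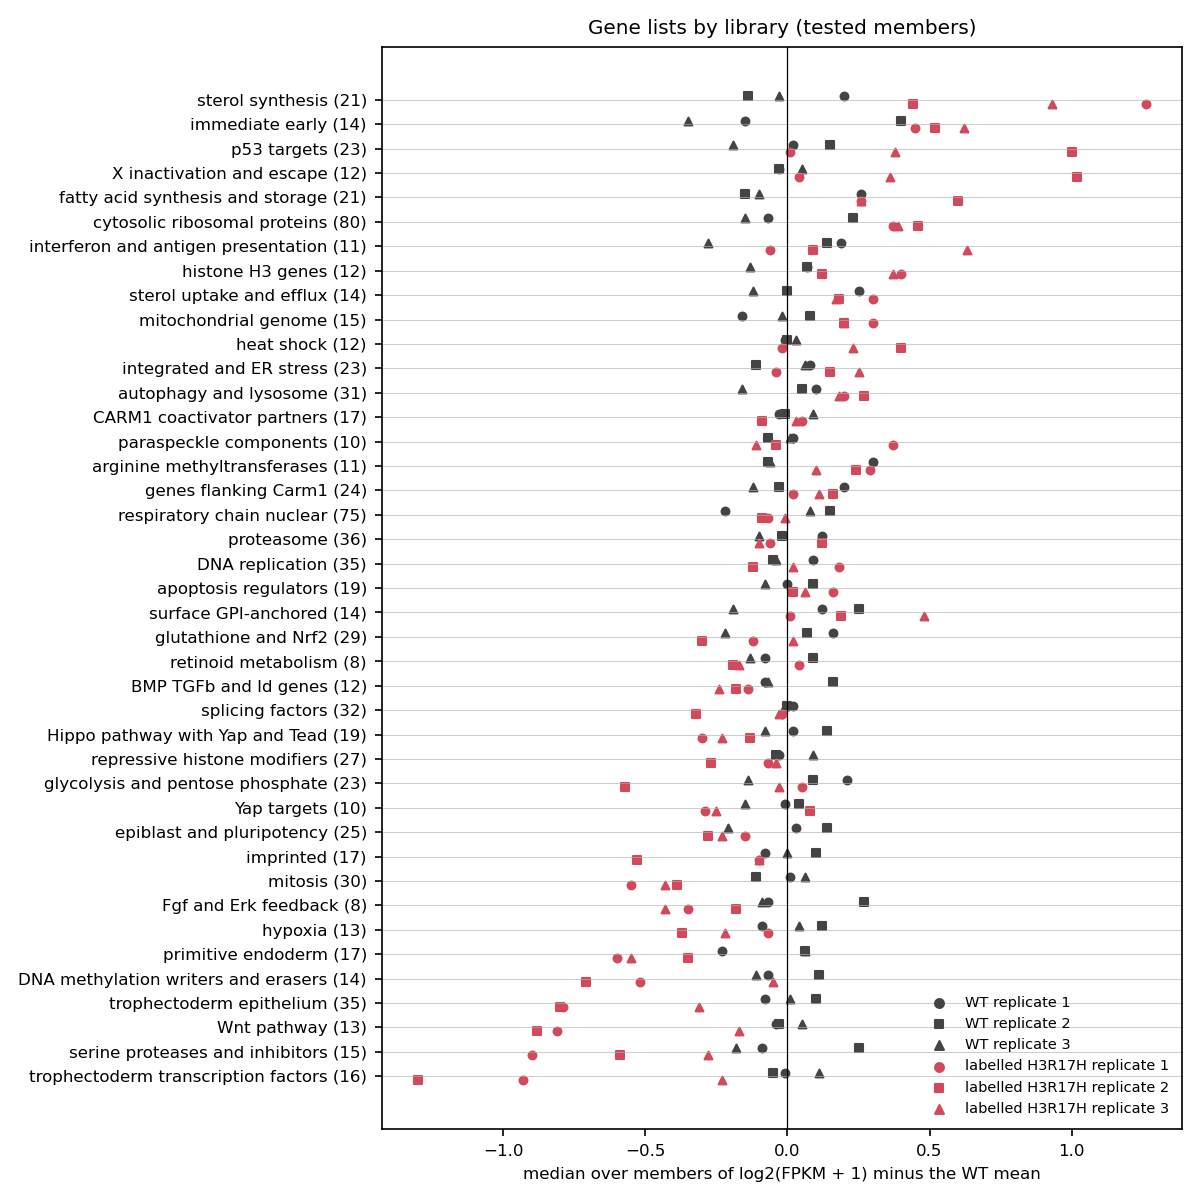
Each point is the median, over the tested members of a gene list, of log2(FPKM + 1) minus the WT mean, in each library; the number of tested members stands in brackets. Sterol synthesis is at the top, with libraries labelled H3R17H between 0.44 and 1.26, and trophectoderm transcription factors at the bottom, between -1.3 and -0.23.

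Ribosomal protein genes had higher values almost without exception. Of 80 tested cytosolic members, 79 had higher values, against 47% of all tested genes, with a median of 0.42, and 7 were called, all higher (8.75%, against 1.18%). Rpl41, the shortest of the ribosomal proteins, was at 1349.6, 1878 and 1532 FPKM in WT and 3791, 4497 and 3809 FPKM labelled H3R17H (log2 difference 1.35, SE 0.16, adjusted p = 0.0125). Rplp1 and Rplp2, which form the stalk of the large subunit, differed by 0.97 and 1.09. Rps27, Rps29, Rpl38 and Rpl39, all small proteins, differed by 1.03, 1.31, 1.19 and 1.66. By library the medians were 0.37, 0.46 and 0.39 labelled H3R17H, and -0.07, 0.23 and -0.15 in WT. These mRNAs are short, and tested genes of up to 500 bases had a median of 0.31 as a whole, with 3.71% called higher. With the length trend removed, Rpl41, Rplp2, Rps29 and Rps27 kept their calls, with adjusted p of 0.0154, 0.0346, 0.0421 and 0.0492. Rplp1, Rpl38 and Rpl39 lost theirs, with log2 differences there of 0.72, 0.93 and 1.46 (adjusted p = 0.069, 0.0658 and 0.0539). Over all alternatives the adjusted p ranged from 0.00822 to 0.269 for Rpl41, from 0.0237 to 0.209 for Rplp2, from 0.0237 to 0.241 for Rps29 and from 0.0316 to 0.251 for Rps27. It ranged from 0.0336 to 0.199 for Rplp1, from 0.027 to 0.318 for Rpl38 and from 0.0298 to 0.288 for Rpl39. Ribosomal genes also have many processed copies, which can share reads. Polr2l, a small subunit of RNA polymerase II, was at 35.9, 52.8 and 39.96 FPKM in WT and 127, 159 and 127.5 FPKM labelled H3R17H (log2 difference 1.67, SE 0.21, adjusted p = 0.0155).

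Genes of the mitochondrial genome mostly had higher values as well. Over its 36 tested genes the median log2 difference was 0.71, with 5 called higher and 1 lower (16.7% called, against 2.49%). All 6 were tRNA genes, of which 21 were tested and 18 had higher values. TrnM was at 153, 171 and 191 FPKM in WT and 357, 536 and 433 FPKM labelled H3R17H (log2 difference 1.34, SE 0.19, adjusted p = 0.0218) and TrnF at 3.47, 2.73 and 2.85 FPKM in WT and 20.7, 22.5 and 7.41 FPKM labelled H3R17H (log2 difference 2.02, SE 0.40, adjusted p = 0.0384). Among the 15 rRNA and protein-coding genes of the mitochondrial list, 11 had higher values and 0 were called by limma (8 at an unadjusted p under 0.05), with a median of 0.22. The 75 nuclear genes of the respiratory chain had a median of -0.01, with 1 called (1.33%, against 2.49%). This was Sdhd, an anchor subunit of complex II, at 219, 226 and 223 FPKM in WT and 128, 80.7 and 122.5 FPKM labelled H3R17H (log2 difference -1.03, SE 0.21, adjusted p = 0.0383). Idh3a and Mdh1 of the citric acid cycle, picked after their values were seen, differed by -1.38 and -0.84. The tRNA genes are among the shortest features of the table.

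Genes of mitosis mostly had lower values. Of 30 tested mitotic genes, 29 had lower values (median -0.39), and 3 were called lower (10%, against 1.32%). Ccnb2, a cyclin that drives entry into mitosis, was at 248, 301 and 367 FPKM in WT and 121, 98.3 and 149 FPKM labelled H3R17H (log2 difference -1.31, SE 0.22, adjusted p = 0.0319). Mki67, which codes for the proliferation antigen Ki-67, was at 16.7, 17.5 and 23.8 FPKM in WT and 7.57, 5.35 and 6.21 FPKM labelled H3R17H (log2 difference -1.46, SE 0.26, adjusted p = 0.0336), and Cenpf, a kinetochore protein, at 8.06, 9.72 and 14.9 FPKM in WT and 3.03, 1.89 and 2.68 FPKM labelled H3R17H (log2 difference -1.72, SE 0.31, adjusted p = 0.0338). Of 35 tested replication genes 17 had higher values, the median was -0.02 and 0 were called by limma, with 4 at an unadjusted p under 0.05. The difference between the mitotic and the replication list was not tested. Histone genes of the Hist clusters, grouped after their values were seen, had a median of 0.55 over 39 tested, with 30 higher in value and 4 called higher. Over all tested genes 47% had higher values and 1.18% were called higher. The late grouping makes these counts a description only. Genes of the Hist clusters lack poly(A) tails in cycling cells and are near-copies of each other, so their FPKM are uncertain.

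Sugar metabolism held 2 calls among 23 tested genes (8.7%, against 2.49%), both lower, with a median of -0.21. Tpi1, triose phosphate isomerase, was at 121.5, 167 and 132 FPKM in WT and 37.8, 24.4 and 33.7 FPKM labelled H3R17H (log2 difference -2.11, SE 0.23, adjusted p = 0.0108). Pgk1, a later step of glycolysis that is X-linked, was at 54.5, 62.4 and 80.8 FPKM in WT and 23.7, 11.3 and 30.5 FPKM labelled H3R17H (log2 difference -1.64, SE 0.34, adjusted p = 0.0466). The other enzymes did not pass. Hk2, the hexokinase of growing cells, came nearest (log2 difference -1.68, adjusted p = 0.052). By library the list stood at 0.05, -0.57 and -0.03, so that only replicate 2 labelled H3R17H was low. Ndrg1, a gene induced by low oxygen, was the 1 called member of 13 tested hypoxia genes (7.69%, against 2.49%). Its values were 51.7, 81.04 and 88.2 FPKM in WT and 8.61, 12.7 and 25.2 FPKM labelled H3R17H (log2 difference -2.27, SE 0.37, adjusted p = 0.0319).

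Amino acid enzymes were among the genes called higher. Gldc, the glycine decarboxylase of the glycine cleavage system, was at 63.9, 65.6 and 49.5 FPKM in WT and 156.5, 177 and 142 FPKM labelled H3R17H (log2 difference 1.40, SE 0.19, adjusted p = 0.0192). Psat1, an enzyme of serine synthesis, was at 129.5, 82.02 and 112 FPKM in WT and 249.4, 300.2 and 203 FPKM labelled H3R17H (log2 difference 1.22, SE 0.22, adjusted p = 0.035). Suox, the sulfite oxidase that ends the breakdown of sulfur amino acids, was at 3.27, 4.52 and 4.14 FPKM in WT and 20.7, 20.4 and 14.8 FPKM labelled H3R17H (log2 difference 1.97, SE 0.26, adjusted p = 0.0174). Pepd, a dipeptidase that frees proline, was lower at 92.9, 73.2 and 71.4 FPKM in WT and 25.2, 23.8 and 26.9 FPKM labelled H3R17H (log2 difference -1.60, SE 0.20, adjusted p = 0.0142). No list of amino acid enzymes was drawn up, so these are single genes. Gnpnat1, of the pathway to UDP-N-acetylglucosamine, differed by 1.41, and Naalad2, a peptidase, by 2.68.

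Retinoid and glutathione enzymes were called in both directions. Adh1 (chromosome 3, 138260991 to 138290698, plus strand), an alcohol dehydrogenase that can oxidize retinol, was at 240.2, 403 and 503 FPKM in WT and 2.02, 1.08 and 22.8 FPKM labelled H3R17H (log2 difference -6.11, SE 0.78, adjusted p = 0.0164), and it was the gene with the most negative difference of all those called on the log2(FPKM + 1) scale. Replicate 3 labelled H3R17H stood above the other 2 of its group and still far under WT. Rdh10, which also oxidizes retinol, rose, at 1.5, 1.8 and 1.55 FPKM in WT and 7.51, 6.56 and 9.23 FPKM labelled H3R17H (log2 difference 1.74, SE 0.27, adjusted p = 0.0314). The 8 tested retinoid genes split evenly, 4 higher and 4 lower in value. Adh1 and Rdh10 were the 2 called (25%, against 2.49% of all genes). Of 29 tested glutathione and Nrf2 genes, 14 had higher values and 3 were called, all of them glutathione transferases that fell (10.3%, against 1.32% called lower). Gsta4 was at 199, 230.0 and 176 FPKM in WT and 30.6, 35.3 and 91.7 FPKM labelled H3R17H (log2 difference -2.09, SE 0.37, adjusted p = 0.0336), and Gstm2 at 23.4, 34.9 and 39.04 FPKM in WT and 8.4, 12.98 and 7.44 FPKM labelled H3R17H (log2 difference -1.66, SE 0.29, adjusted p = 0.0336); Gstm1, a close copy of Gstm2, differed by -2.56. Glrx, a glutaredoxin, was at 230.5, 214 and 168 FPKM in WT and 21.01, 3.76 and 50.2 FPKM labelled H3R17H (log2 difference -3.54, SE 0.70, adjusted p = 0.0383).

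Among genes of the X chromosome and of early stages, Rhox5 rose by the largest amount of any tested gene on the log2(FPKM + 1) scale. Rhox5 (chromosome X, 37804842 to 37808876, plus strand), a homeobox gene of the reproductive Rhox cluster, was at 0.66, 0.51 and 0.21 FPKM in WT and 45.4, 294 and 117 FPKM labelled H3R17H (log2 difference 6.34, SE 0.57, adjusted p = 0.00858). Every WT value was under 1 FPKM, and the library with Y transcripts, replicate 1, was the lowest of the 3 labelled H3R17H. Rhox9, of the same cluster, was listed at 0 in all WT libraries and at 2.69, 33.96 and 18.6 FPKM in those labelled H3R17H (adjusted p = 0.0357). Both paralogs, like Xist, were higher in replicates 2 and 3 than in replicate 1. With the term for Y transcripts, which sets replicate 1 alone against WT, the log2 difference of Rhox5 was 5. A call from that fit would rest on 1 library, so none is given for Rhox5, Xist and Rhox9. Over all alternatives the adjusted p of these 3 ranged from 0.0019 to 0.137, from 0.00463 to 0.214 and from 0.00293 to 0.198. Over the 12 tested genes of X inactivation and escape the median was 0.45, and by library 0.04, 1.02 and 0.36. Of 339 tested X-linked genes, 12 were called (3.54%, against 2.49%). Among them were Tbl1x, a corepressor subunit, at 15.2, 13.9 and 15.3 FPKM in WT and 3.08, 3.42 and 1.94 FPKM labelled H3R17H (log2 difference -2.07, SE 0.27, adjusted p = 0.0165), and Maged2 and Ldoc1, which fell by 2.47 and 2.62. Rhox5, Rhox9 and Xist were under 1 FPKM in every WT library, and Maged2 in every library labelled H3R17H. The filter thus fixed the direction of these genes.

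Genes of the 2-cell stage mostly had higher values. Of 6 tested, 5 had higher values (median 1.86) and 2 were called (33.3%, against 2.49%), Trim43b above and Sp110, a nuclear body protein whose gene has near copies that may share its reads. Sp110 was at 12.3, 6.35 and 18.1 FPKM in WT and 170.2, 61.2 and 37.5 FPKM labelled H3R17H (log2 difference 2.59, SE 0.54, adjusted p = 0.0449), and replicate 1 labelled H3R17H was the highest. By library the median of the 6 was 3.29, 1.85 and 0.59, a wide spread within the group. Surface proteins with a lipid (GPI) anchor split evenly, 7 higher and 7 lower in value over 14 tested, and 4 were called (28.6%, against 2.49%). As this list was chosen with earlier results of these data known, its share is a description only. Alppl2 is given above. Ly6a (Sca-1) was at 283, 268 and 145.5 FPKM in WT and 1020.5, 682 and 1129 FPKM labelled H3R17H (log2 difference 2.05, SE 0.29, adjusted p = 0.0211). Art3, an ADP-ribosyltransferase relative, was listed at no more than 0.01 FPKM in WT, with 1.23, 3.79 and 2.3 FPKM under the H3R17H label. It entered only through the libraries labelled H3R17H, so of the 4 called it could only be higher. Tdgf1, the fourth, was lower, as given above.

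Carm1, Hist2h3c2 and Dnmt3b were the genes called on the chromatin lists described here. Carm1 was the 1 called gene of 11 tested arginine methyltransferases and partners (9.09%, against 2.49%), which had a median of 0.06. Prmt5, the main enzyme of symmetric arginine methylation, was at 86.2, 60.98 and 58.5 FPKM in WT and 98.5, 179 and 122.5 FPKM labelled H3R17H (log2 difference 0.93, SE 0.26, adjusted p = 0.0843), and Prmt1, the main asymmetric one, at 244.5, 91.9 and 145 FPKM in WT and 212, 317 and 159 FPKM labelled H3R17H (log2 difference 0.57, SE 0.36, adjusted p = 0.387). Among 12 tested histone H3 genes 7 had higher values and 1 was called (8.33%, against 2.49%). This was Hist2h3c2, listed at 0 in WT, with 1.43, 3.13 and 1.76 FPKM under the H3R17H label. Hist2h3c2 entered only through the libraries labelled H3R17H and could only be higher. None of 17 CARM1 coactivator partners (median 0.07) and none of 10 paraspeckle components (median 0.07) was called by limma, with 2 and 3 at an unadjusted p under 0.05. Of 14 writers and erasers of DNA methylation 10 had lower values (median -0.46) and 1 was called (7.14%, against 2.49%). This was Dnmt3b, a de novo methyltransferase of the epiblast, at 27.9, 34.8 and 32.04 FPKM in WT and 14.97, 14.1 and 13.4 FPKM labelled H3R17H (log2 difference -1.10, SE 0.21, adjusted p = 0.036). Its 3 values labelled H3R17H lay close together. Of 24 tested genes that flank Carm1 on chromosome 9, 1 was called (4.17%, against 2.49%). This was Icam4, an adhesion molecule, at 12.7, 8.97 and 11.2 FPKM in WT and 27.4, 31.5 and 24.3 FPKM labelled H3R17H (log2 difference 1.27, SE 0.23, adjusted p = 0.0349).

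Psat1, Ddit4 and Map1lc3a were the genes called on the lists of stress responses, autophagy and cell death. Of 23 tested p53 targets 20 had higher values (median 0.47), none was called by limma with 6 at an unadjusted p under 0.05, and the medians by library were 0.01, 1 and 0.38. Cdkn1a (p21), the cell cycle inhibitor downstream of p53, was at 128, 127 and 113 FPKM in WT and 259, 360.4 and 175 FPKM labelled H3R17H (log2 difference 1.05, SE 0.25, adjusted p = 0.0614); the groups were apart. Of 23 tested genes of the integrated and ER stress responses 13 had higher values (median 0.16), and Psat1 and Ddit4 were called (8.7%, against 2.49%). Ddit4 (Redd1), an inhibitor of mTORC1, was at 5.34, 1.04 and 0.73 FPKM in WT and 12.2, 30.3 and 11.5 FPKM labelled H3R17H (log2 difference 2.62, SE 0.55, adjusted p = 0.0456). Among 31 tested autophagy and lysosome genes 1 was called (3.23%, near the 2.49% of all genes). This was Map1lc3a, which codes for a protein of the autophagosome membrane, at 160.1, 140.1 and 109.6 FPKM in WT and 291, 254 and 282 FPKM labelled H3R17H (log2 difference 1.02, SE 0.18, adjusted p = 0.0338). Apoptosis regulators (19 tested, median -0.02), heat shock genes (12 tested, median 0.17) and proteasome subunits (36 tested, median -0.02) gave no call by limma, with 4, 3 and 4 at an unadjusted p under 0.05.

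Among the remaining genes with the smallest p, Rdm1, a DNA repair protein, was at 25.5, 19.6 and 16.4 FPKM in WT and 71.98, 80.1 and 63.9 FPKM labelled H3R17H (log2 difference 1.78, SE 0.22, adjusted p = 0.0158). Fcgr3, a receptor for antibody Fc parts known from immune cells, was at 1.32, 1.69 and 1.85 FPKM in WT and 27.02, 30.4 and 7.29 FPKM labelled H3R17H (log2 difference 2.89, SE 0.48, adjusted p = 0.0319). Cd68, another gene known from macrophages, was also higher in value (log2 difference 1.21, adjusted p = 0.0946), while Csf1r, which defines those cells, was at 0 in all 6 libraries. Summed over the 5 listed blood and immune markers, FPKM ranged from 14.5 to 28.7 in WT and from 27.4 to 64.1 in the libraries labelled H3R17H, nearly all of it from Cd68, and the part of such cells in the result was not tested. Tnfsf13b (BAFF), a cytokine, was at 0.88, 0.93 and 1.45 FPKM in WT and 6.02, 10.5 and 7.56 FPKM labelled H3R17H (log2 difference 2.09, SE 0.31, adjusted p = 0.025). Rgs14, a regulator of G protein signalling and of the spindle, was at 9.45, 1.39 and 3.46 FPKM in WT and 31.2, 32.5 and 35.05 FPKM labelled H3R17H (log2 difference 2.82, SE 0.47, adjusted p = 0.0319), with tightly grouped values labelled H3R17H. Sult4a1, a sulfotransferase relative known from brain, differed by 2.20. Map2k6, a kinase that activates p38, was lower at 8.84, 7.72 and 7.95 FPKM in WT and 1.34, 0.62 and 1.24 FPKM labelled H3R17H (log2 difference -2.17, SE 0.28, adjusted p = 0.0165).

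Values in the libraries labelled Carm1-/- can be set beside these, although both comparisons would use the WT libraries and the difference between the labelled groups was not tested. Rhox5 was at 16.7, 264 and 412 FPKM, Trim43b at 8.93, 177 and 306 FPKM and Alppl2 at 277, 868 and 875 FPKM there. Lurap1l was at 23.01, 0 and 5.27 FPKM, Id2 at 296, 32.4 and 25.7 FPKM and Adh1 at 96.3, 0 and 0.06 FPKM. In these 6 genes replicates 2 and 3 labelled Carm1-/- lay on the side of WT where the libraries labelled H3R17H lay, and so did replicate 1 for Rhox5, Id2, Alppl2 and Adh1. For Id2 and Alppl2 replicate 1 lay only just beyond WT, whose lowest Id2 value was 308 FPKM and highest Alppl2 value 246 FPKM. The called sterol genes were mixed there. Fdps was at 149, 336 and 341 FPKM and Sqle at 8.99, 36.2 and 60.5 FPKM. In both, replicates 2 and 3 labelled Carm1-/- lay above every WT value and replicate 1 below. Insig1 was at 14.4, 29.8 and 40.4 FPKM and Lss at 9.17, 10.1 and 6.25 FPKM, both overlapping WT. Rgs14 was at 3.46, 3.3 and 5.24 FPKM and Tbx3 at 18.9, 16.5 and 10.3 FPKM, which also overlapped WT. Tbl1x was at 9.44, 12.7 and 7.6 FPKM, all under the WT values and above those labelled H3R17H. Pdgfra was at 7.95, 2.91 and 10.01 FPKM, which overlapped WT.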

How the data were processed

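RNA was measured by sequencing in 6 libraries, 3 labelled WT and 3 labelled H3R17H, grouped by sample titles. The authors deposited their values as FPKM in 1 table, in which each library has a column, per the file headers. Bowtie (0.12.2) and the names GRCm38 and mm10 appear in the submitters' processing notes without a stated role. How FPKM were computed, from which annotation and after which filter is not given in the sources used here. Such values divide by transcript length and library total, so an error in either moves the values, and near-identical genes share reads. Depth is unknown, because low values show no whole-read steps. Of the listed symbols, 19 were turned into dates and none of these is named; 4 rows share a symbol with another.

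Values were tested as log2(FPKM + 1) with limma 3.58.1 in R 4.3.3, with an intensity trend, only the 6 libraries, a two-sided test and Benjamini-Hochberg adjustment over all tested genes at 0.05. Differences are on that scale and understate changes of low genes. An exact permutation test of 3 against 3 libraries cannot go below 0.1, so none was used. The scripts were tested on simulated data. Genes were named by a rule: Carm1; among called genes with separate groups and at least 5 FPKM in the higher group, the 15 with the smallest p and the 10 with the largest difference in each direction; called members and up to 4 leading members of gene lists; and 16 fixed genes of the embryonic lineages and Yap. Not every gene so named is printed. Some of them are not reported here. The genes, lists and rule were chosen with earlier results of these data known. Lists are described by counts and medians, with no set test. Alternatives changed the pseudocount, filter, scaling, test, libraries, replicate block, sex term and chromosomes; leaving out chromosomes 1 and 4 and removing the length trend were chosen after seeing the data. Coordinates and transcript lengths come from GENCODE M21 (GRCm38), matched by symbol and chromosome for 88.7% of symbols, and promoters from RefSeq (GRCm38.p6). Summaries and plots were made with matplotlib 3.10.9, numpy 2.4.6 and pandas 2.3.3 under Python 3.11.15.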

Additional observations from a re-analysis of the deposited data

How the results depend on the processing

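The count of 271 calls moved by over 1.5 times under several settings. It was 136 with a pseudocount of 0.1, 21 without a filter, 90 without the intensity trend, 39 with the sex term, 141 with only the libraries that hold Y-linked transcripts and 0 with all 9 libraries in the fit (1633 genes at an unadjusted p under 0.05). Leaving out 1 library gave from 2 to 595 calls. Fewer libraries or another estimate of spread enter these fits by construction, and no other cause was tested. The other settings, apart from the 2 that rest on 1 library labelled H3R17H, gave between 239 and 367 calls. The share of calls that were higher was 47.2%. Over the settings that keep all 6 libraries, the sex term aside, it ranged from 42.9% with a pseudocount of 5 to 52.4% without a filter. With 1 library left out it ranged from 40.2% to 80%. Median-of-ratios scaling gave 50.7% and quantile normalization 48.2%. The median over all genes, -0.04, became 0.015 with the sex term and with only the libraries that hold Y-linked transcripts. Among genes that did not pass, small differences changed sign. Apoa1 became -0.69 and Nanog -0.22 with the sex term and with only the Y-transcript libraries, and Tead4 -0.13 with both of these and -0.04 with array weights. With each library left out in turn, Tead4 lay between -0.08 and 0.29 and Wwtr1 between -0.32 and 0.03. Depth is unknown, so its limits could not be given.

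The replicate number as a block gave 250 calls (190 shared). Same-numbered libraries did not deviate together: the correlations of their deviations from the group means were -0.018, -0.027 and 0.016, so the numbers were not taken to pair the samples. None of the 6 libraries correlated best with the one of its own number.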
